A study of Homo sapiens with 3 samples.

Results

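Cells that respire make superoxide and hydrogen peroxide, and a small set of enzymes removes both. The expression of 10 genes of these enzymes was examined in RNA-seq data from RBCK1-depleted Caki-1 cells. They encode the superoxide dismutases SOD1 and SOD2, catalase (CAT), the glutathione peroxidases GPX1 and GPX4, and the peroxiredoxins PRDX1, PRDX2, PRDX3, PRDX5 and PRDX6. The genes were chosen by name, as widely expressed enzymes of this kind, but with earlier results of these data known. Counts over them therefore only describe these 10 genes. Each gene matched 1 of the 44591 genes of the deposited table. RBCK1, also called HOIL-1, is a subunit of the linear ubiquitin chain assembly complex. Caki-1 is an established human cell line from clear cell renal cell carcinoma. The cells carried a control siRNA (si-Control) or an siRNA against RBCK1 (labelled si-HOIL-1#1 and si-HOIL-1#2, here si-RBCK1 #1 and si-RBCK1 #2), and by the methods of the study RNA was taken 48 h after transfection. Each condition has 1 library, so the differences below could not be set against replicates, and no p-value was computed.

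Superoxide dismutases turn superoxide into oxygen and hydrogen peroxide. SOD1 is the copper and zinc enzyme of the cytosol and SOD2 the manganese enzyme of the mitochondrial matrix. Catalase breaks hydrogen peroxide down in peroxisomes, glutathione peroxidases reduce peroxides with glutathione, and peroxiredoxins use a reactive cysteine that the thioredoxin system restores in most of them. In the kidney, tubule cells are rich in mitochondria and peroxisomes, and these enzymes are known as their guard against oxidative injury.

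The siRNAs are shown because they define the groups. Both sense strands are 19 nt long, and the capitals mark the bases that pair with guide bases 2 to 8, the seed.

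si-RBCK1 #1: ggtgcaccttcATCAACAa
si-RBCK1 #2: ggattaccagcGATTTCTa

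The whole of each sense strand was found in RBCK1 and in no other of 10568 genes, each searched in its longest protein-coding transcript. The seed site of si-RBCK1 #1 was found in 23.8% of them, among them PRDX2 (1 match). The seed site of si-RBCK1 #2 was found in 29.2%, among them SOD2 (2 matches in 14266 nt) and PRDX5 (1 match). A match is a description of the transcript, and its part in the values below was not tested.

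The level of RBCK1 itself, in RPKM (reads per kilobase of gene model, scaled to the depth of the library), was 33.3 in the control library. It was 9.97 RPKM under siRNA #1 and 12.3 RPKM under siRNA #2, or 29.9% and 36.8% of the control. The libraries were scaled by 36926834, 40442939 and 36344428 reads in the same order. In every library 8 or 9 of 14 renal epithelial carcinoma markers were at 1 RPKM or more, while CA9, AQP1, PAX2 and EPCAM stayed under 1 RPKM. Of 12 markers of blood, endothelial and stromal cells, COL1A1 alone reached 1 RPKM, and their summed level was between 3.69 and 4.92 RPKM.

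All 10 genes were detected in every library, between 8.17 RPKM (PRDX2 with si-Control) and 564 RPKM (PRDX1 with si-RBCK1 #1). With si-Control the order from the highest was SOD2, PRDX6, PRDX1, PRDX5, GPX1, SOD1, GPX4, PRDX3, CAT and PRDX2. With either si-RBCK1 siRNA PRDX1 was first, PRDX6 second, and SOD2 lower down the order. The separate 95% counting intervals of neighbours in these orders did not overlap, apart from PRDX5 and GPX1 with si-RBCK1 #1, at 161 and 155 RPKM. Orders, ratios and sums between genes also depend on the length of each gene model, which these intervals do not cover.

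**Figure D1:**
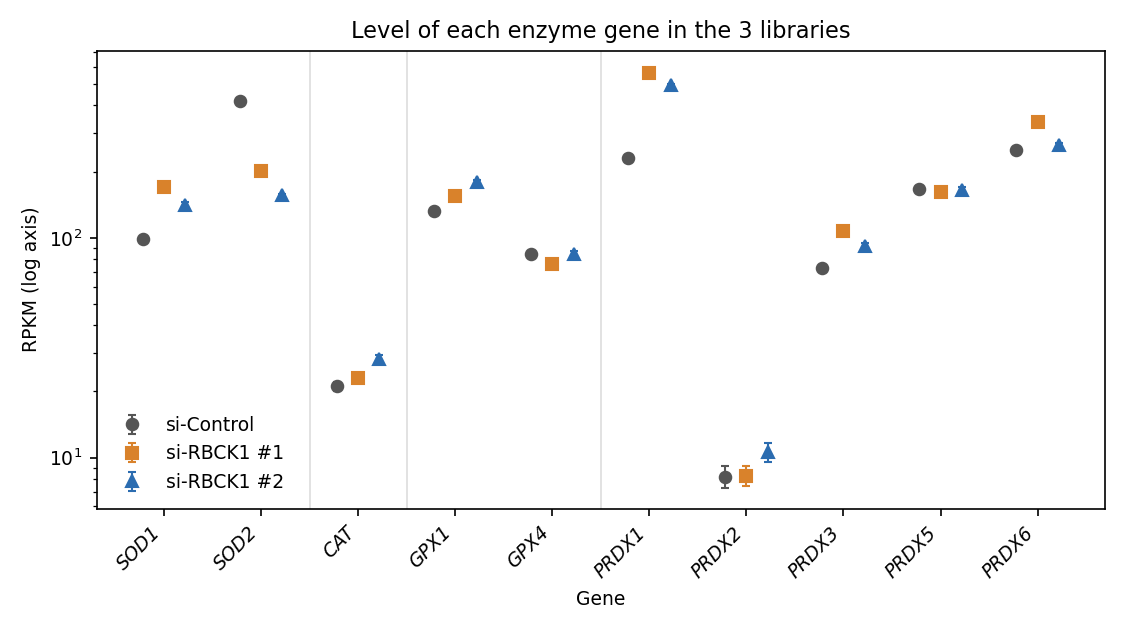
Level of each enzyme gene in each library, in RPKM on a log axis. Each point is 1 library, and bars are 95% intervals from counting error alone. SOD2 stood at the top of the control library, at 418 RPKM, and at 202 and 156 RPKM in the others, and PRDX1 stood at 231, 564 and 493 RPKM.

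Each si-RBCK1 library was compared with si-Control by the difference in log2(RPKM + 1), called the log2 ratio, which understates changes of low genes. Both ratios use the same si-Control library, so they are given side by side and are not independent of each other. At a limit of 2-fold, 2 of the 10 genes differed from si-Control with si-RBCK1 #1, against 6.18% of the 12403 genes that averaged 1 RPKM or more over the libraries. The same 2 of 10 differed with si-RBCK1 #2, against 4.76% of all genes, and 2.87% of all genes did so in the same direction with both siRNAs. They were PRDX1, higher with both siRNAs (as were 1.46% of all genes), and SOD2, lower with both (as were 1.41%). At 1.5-fold the count with si-RBCK1 #1 was 3 of 10, SOD1 being added, against 23.7% of all genes. With si-RBCK1 #2 it remained 2 of 10, against 20.6%.

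The log2 ratio had 1 sign with both siRNAs in all 10 genes. It was above 0 with both in 7 genes, against 43.3% of all genes, and below 0 with both in SOD2, GPX4 and PRDX5, against 38.2%. The ratios of PRDX2 with si-RBCK1 #1, and of GPX4 and PRDX5 with si-RBCK1 #2, lay within counting error of 0. The median over the 10 genes was 0.17 with si-RBCK1 #1 and 0.33 with si-RBCK1 #2, and over all genes it was 0.02 and 0.03. At this depth counting error is small, and a 95% counting interval on reads left out 0 for 9 of the 10 genes with si-RBCK1 #1 (77.7% of all genes) and for 8 with si-RBCK1 #2 (75.1%). These intervals do not cover differences between cultures, and reads made by PCR are not independent molecules.

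**Figure D2:**
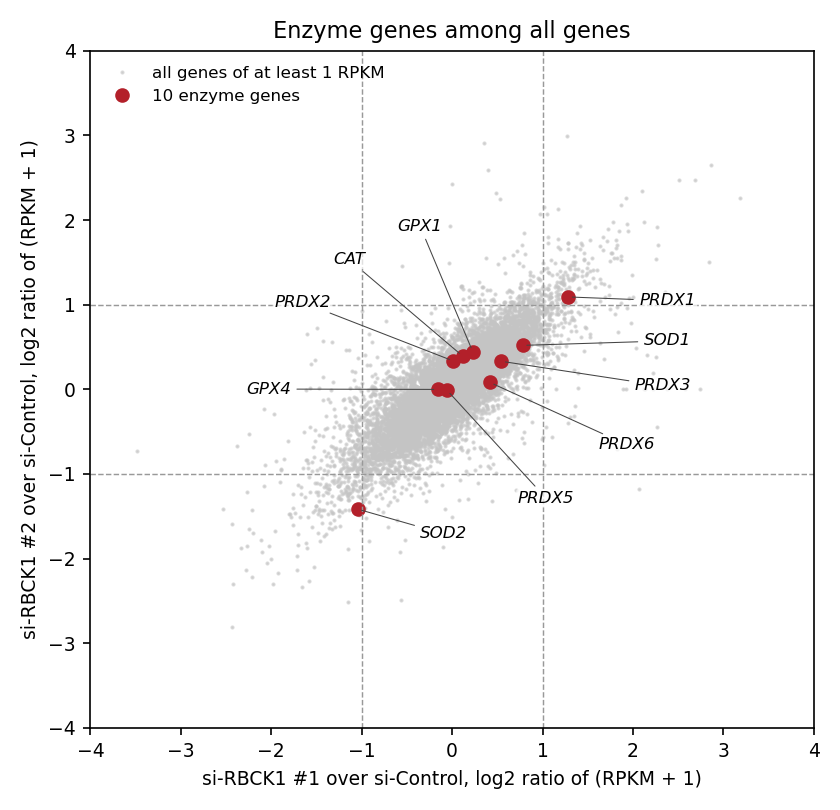
Log2 ratio of each si-RBCK1 library over si-Control for all 12403 genes (grey) and the 10 enzyme genes (red); dashed lines mark 2-fold. PRDX1 lies past both lines above and SOD2 past both lines below, and the other 8 genes lie inside them. Both axes share the si-Control library.

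The superoxide dismutases differed from the control in opposite directions. SOD2 lies on chromosome 6 from 160100096 to 160183561 on the minus strand (hg19, the build named in the submitters' processing notes). The control library held 121765 reads of it (418 RPKM), the si-RBCK1 #1 library 64487 reads (202 RPKM) and the si-RBCK1 #2 library 44740 reads (156 RPKM). The control library was the highest, and both si-RBCK1 libraries were under it by more than 2-fold, at 48.4% and 37.3% of its level. Its log2 ratio was -1.04 with the first siRNA and -1.42 with the second, and the counting intervals ran from -1.06 to -1.03 and from -1.44 to -1.41. Among 12403 genes ranked from the lowest ratio, SOD2 was number 358 with si-RBCK1 #1 and number 81 with si-RBCK1 #2. The study shows SOD2 among genes it picked from these libraries, so its direction is not independent evidence.

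SOD1 is on the plus strand of chromosome 21, from 33031935 to 33041244. It stood at 98.3 RPKM in the control library and at 169.7 and 141 RPKM in the si-RBCK1 #1 and si-RBCK1 #2 libraries. Here the control library was the lowest. The log2 ratios were 0.78 and 0.52, or 1.73-fold and 1.44-fold, so SOD1 did not reach the 2-fold limit with either siRNA. In bulk RNA, fewer cells that express a gene and less of its RNA per cell cannot be told apart.

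The balance of the pair therefore shifted. SOD2 exceeded SOD1 by 4.25-fold in RPKM with si-Control (counting interval 4.11 to 4.39), by 1.19-fold with si-RBCK1 #1 (1.16 to 1.22) and by 1.10-fold with si-RBCK1 #2 (1.07 to 1.14). The summed level of both genes was 516, 372 and 297 RPKM in the same order. SOD2 made up 80.9% of that sum with si-Control, 54.3% with si-RBCK1 #1 and 52.5% with si-RBCK1 #2. Counted in reads its share was 97.2%, 90.7% and 90.02%, because its gene model is 7897 nt long and that of SOD1 is 966 nt long. The ratio, the sum and the share in RPKM depend on these model lengths, which are the same in all libraries. Transcripts of another length would change them by an amount that the counting intervals do not cover.

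**Figure D3:**
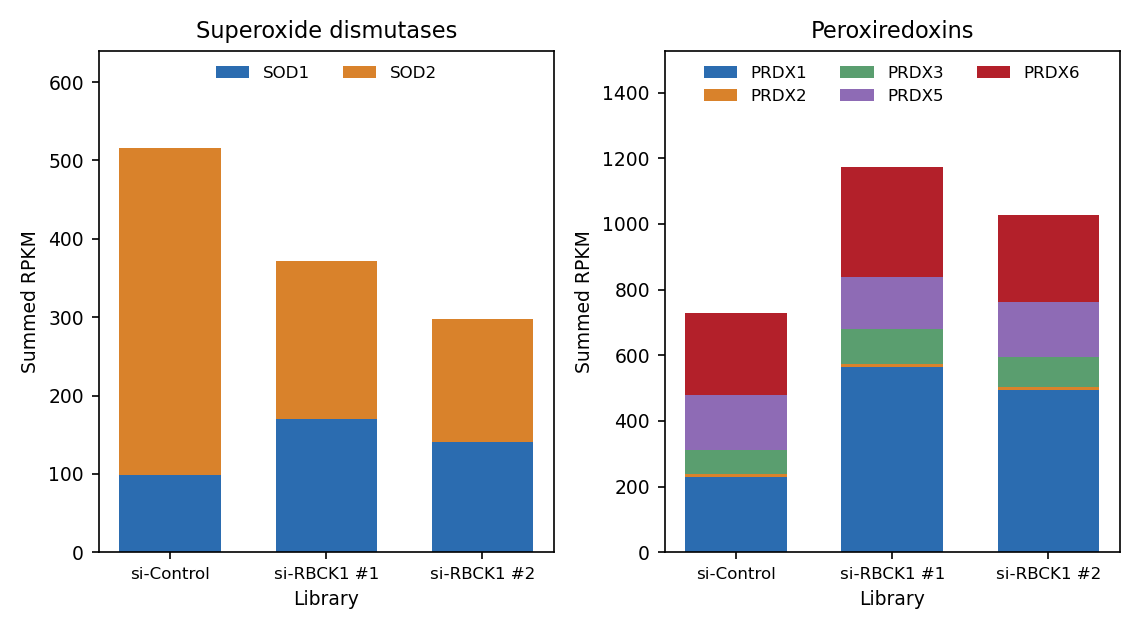
Summed RPKM of SOD1 and SOD2 (left) and of the 5 peroxiredoxins (right) in each library, with the part of each gene in its own colour. The superoxide dismutase sum was 516, 372 and 297 RPKM and the peroxiredoxin sum 729, 1175 and 1026 RPKM, in the order si-Control, si-RBCK1 #1 and si-RBCK1 #2.

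Other genes share the SOD2 locus. WTAP, a subunit of the RNA methyltransferase complex, lies on the opposite strand inside the SOD2 span, from 160148030 to 160177351. It was at 47.2, 35.2 and 29.7 RPKM, and its log2 ratios were -0.42 and -0.65. WTAP was thus lower with both siRNAs, and its 6104 reads with si-Control were few beside those of SOD2. ACAT2, a cytosolic acetyl-CoA acetyltransferase on the opposite strand, overlaps SOD2 by 573 nt and was at 14.9, 21.8 and 21.9 RPKM, with a log2 ratio of 0.52 with both siRNAs. The labels name a directional library kit, but the strand setting of the counting was not given, so reads of overlapping genes may have been shared, and this was not tested. LOC100129518, a noncoding gene there, had 0 to 4 reads.

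Promoter sequences of SOD2 and of PRDX3, the peroxiredoxin of the same compartment, are shown because these mitochondrial genes lay on opposite sides of the control. Each is the 250 bases before a RefSeq transcript start on the minus strand of GRCh38.p14, a build other than that of the table, and capitals mark GC boxes (GGGCGG on either strand, overlapping matches joined).

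SOD2, chr6:159693242-159693491: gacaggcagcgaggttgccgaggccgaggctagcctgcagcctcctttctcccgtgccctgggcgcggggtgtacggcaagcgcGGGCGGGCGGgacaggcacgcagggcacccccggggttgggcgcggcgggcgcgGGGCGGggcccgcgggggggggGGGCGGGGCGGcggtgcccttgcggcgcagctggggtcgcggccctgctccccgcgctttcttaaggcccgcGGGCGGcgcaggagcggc
PRDX3, chr10:119178813-119179062: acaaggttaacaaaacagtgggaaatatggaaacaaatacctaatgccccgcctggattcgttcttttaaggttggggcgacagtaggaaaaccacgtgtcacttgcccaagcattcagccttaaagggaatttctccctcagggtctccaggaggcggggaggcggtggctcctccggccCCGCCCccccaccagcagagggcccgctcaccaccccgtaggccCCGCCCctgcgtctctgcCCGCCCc

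The SOD2 window shown, the one with the most GC boxes of 4 listed for the gene, holds 6 and is 80.8% G or C (the others hold 1 to 4 and are 68% to 78.4% G or C), and the PRDX3 window holds 3 and is 60.4% G or C, while the median over all 35116 promoters was 58%. Motifs were searched in these 250 bases of every promoter. The promoters searched held 13 windows for 7 of the 10 genes, 4 of them for SOD2, and some windows of 1 gene overlap each other. No window was available for SOD1, PRDX1 or PRDX6, so the motif counts below leave these genes out. A GC box was in 13 of 13, against 42.6% of all promoters, and a CCAAT box (CCAAT on either strand) was in 5 of 13, against 32.0%. The antioxidant response element (TGACNNNGC on either strand) was in none of the 13 windows and in 10.9% of all promoters. The kappaB motif was in none of the 13 and in 9.96% of all. These are matches of letters in short windows and say nothing about binding.

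Genes with log2 ratios nearest to those of SOD2 were sought among 5540 protein-coding genes averaging 10 RPKM or more, by the distance of the pair of ratios. FNDC3B, a membrane protein with fibronectin repeats, came first at 84.0, 39.99 and 30.8 RPKM, with log2 ratios of -1.05 and -1.42. BCAT1, the cytosolic branched-chain aminotransferase, followed with -1.07 and -1.40. SCG5, a chaperone of a prohormone convertase, was next with -0.98 and -1.40. The likeness is over 3 libraries only.

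Of the 5 peroxiredoxins, 4 had log2 ratios above 0 with both siRNAs, as had 43.3% of all genes, and PRDX1 led them. PRDX1, the abundant cytosolic enzyme and a chaperone when oxidized, is on the minus strand of chromosome 1, from 45976707 to 45988562. The control library held 11494 reads of it (231 RPKM), the si-RBCK1 #1 library 30742 reads (564 RPKM) and the si-RBCK1 #2 library 24157 reads (493 RPKM). Both si-RBCK1 libraries stood more than 2-fold above the control library. The log2 ratios were 1.28 and 1.09, or 2.44-fold and 2.14-fold, and the counting intervals ran from 1.26 to 1.32 and from 1.06 to 1.13. From the highest ratio PRDX1 was number 149 with si-RBCK1 #1 and number 228 with si-RBCK1 #2 of 12403 genes. Its span shares 33 nt with MMACHC, a cobalamin enzyme at 2.24 to 4.02 RPKM, and a tRNA gene listed with a span across much of the chromosome (TRNAN-GUU) had 0 or 1 read.

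PRDX3, the mitochondrial peroxiredoxin (chromosome 10 from 120927211 to 120938377, minus strand), was at 72.9, 107 and 91.9 RPKM. The control library was again the lowest, and the log2 ratios were 0.54 and 0.33. SOD2 makes hydrogen peroxide in the matrix, where PRDX3 removes it, and the ratio of SOD2 to PRDX3 in RPKM was 5.73 with si-Control, 1.89 with si-RBCK1 #1 and 1.70 with si-RBCK1 #2. PRDX6, which reduces phospholipid peroxides with glutathione (chromosome 1 from 173446486 to 173457946, plus strand), was at 250.2, 335 and 265 RPKM. Its log2 ratio was 0.42 with si-RBCK1 #1 and 0.08 with si-RBCK1 #2, so the higher level with si-RBCK1 #1 was hardly seen with the other siRNA.

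PRDX2, a cytosolic enzyme best known from red blood cells (chromosome 19 from 12907634 to 12912724, minus strand), was the lowest of the 10 genes at 8.17, 8.27 and 10.5 RPKM (313 to 398 reads). Its log2 ratios were 0.02 and 0.33, with counting error on reads spanning -0.21 to 0.24 and 0.15 to 0.59, so it was above the control beyond counting error with si-RBCK1 #2 alone. PRDX5, found in mitochondria, peroxisomes and cytosol (chromosome 11 from 64085560 to 64089295, plus strand), was at 167, 161 and 166 RPKM. Its log2 ratios were -0.05 and -0.01, and all 3 libraries lay within a few percent of each other.

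As a whole, the 5 peroxiredoxins summed to 729, 1175 and 1026 RPKM in the order si-Control, si-RBCK1 #1 and si-RBCK1 #2, the si-RBCK1 sums being 1.61-fold and 1.41-fold that of the control. PRDX1 made up 31.7%, 47.998% and 48.1% of the sum. The share of PRDX6 was 34.3%, 28.5% and 25.8%, and that of PRDX5 was 22.9%, 13.7% and 16.1%. PRDX3 held 9.996%, 9.09% and 8.96% and PRDX2 1.12%, 0.704% and 1.03%. PRDX6 and PRDX1 were thus close to equal in the control library, and PRDX1 was well ahead in both others.

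**Figure D4:**
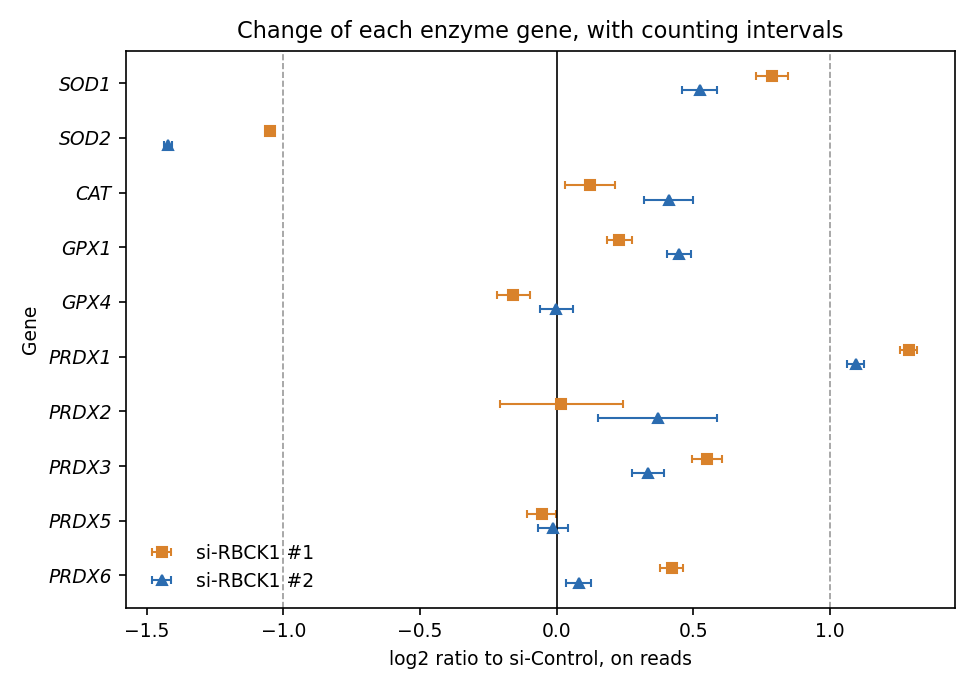
Log2 ratio of each si-RBCK1 library over si-Control for the 10 enzyme genes, computed on reads with no pseudocount; bars are 95% counting intervals and dashed lines mark 2-fold. PRDX1 (1.29 and 1.09) and SOD2 (-1.05 and -1.42) lie outside the lines, and GPX4 and PRDX5 lie next to 0.

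Neither glutathione peroxidase reached 2-fold. GPX1, the cytosolic and mitochondrial selenoenzyme that reduces hydrogen peroxide (chromosome 3 from 49394604 to 49396033, minus strand), was at 132 RPKM in the control library and at 155 and 180.2 RPKM in the si-RBCK1 libraries. The log2 ratios were 0.23 and 0.45. GPX4, which reduces lipid peroxides in membranes and restrains ferroptosis (chromosome 19 from 1103925 to 1106788, plus strand), was at 84.4, 75.6 and 84.3 RPKM. It was slightly lower with si-RBCK1 #1 (log2 ratio -0.16, counting interval -0.22 to -0.10) and level with the control with si-RBCK1 #2 (interval -0.06 to 0.06). GPX1 made up 61.0%, 67.2% and 68.1% of the RPKM of the pair.

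Catalase (chromosome 11 from 34460472 to 34493607, plus strand) was one of the low genes, at 21.1 RPKM in the control library and 23.0 and 28.1 RPKM in the si-RBCK1 libraries. The log2 ratios were 0.12 and 0.39, and CAT was furthest from the control with si-RBCK1 #2, as were GPX1 and PRDX2. SOD1, PRDX1, PRDX3 and PRDX6 were furthest with si-RBCK1 #1. The size of the log2 difference between the si-RBCK1 libraries had a median of 0.24 over the 10 genes and of 0.17 over all genes. It was 0.37 for SOD2, which was lower with si-RBCK1 #2, and 0.19 for PRDX1. The 10 genes together summed to 1483, 1800 and 1616 RPKM, so the sum was above the control although SOD2 was below it.

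Reads that fit several genes could blur these values. Sought by symbol (the gene name followed by P, with or without a number), 9 pseudogenes of 4 of the genes were listed. All were under 1 RPKM, the highest being GPX1P1 at 0.956 RPKM. Copies under other names were not sought, and whether reads were lost from the enzyme genes in this way was not tested. An antisense gene of SOD1 (ENSG00000273271.1) was at 0.317 to 1.71 RPKM, and that of PRDX2 (ENSG00000267062.1) was listed at 0 in every library.

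Relatives outside the 10 genes followed in part. Of 8 other SOD, GPX and PRDX genes, 4 passed the filter and none was 2-fold changed with both siRNAs. PRDX4, the peroxiredoxin of the endoplasmic reticulum, was at 132, 175 and 154 RPKM (log2 ratios 0.40 and 0.22). GPX3, a secreted enzyme, had log2 ratios of 0.56 and 0.35, and GPX8 had -0.35 and -0.21. SOD3, the extracellular superoxide dismutase, had -0.30 and 0.60, opposite in sign between the siRNAs.

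Peroxiredoxins are restored by the thioredoxin system, whose genes split. Of 13 genes, 12 passed the filter, with medians of 0.33 and 0.07, and 2 were at least 2-fold higher and 1 at least 2-fold lower with both siRNAs, beside the same 1.46% and 1.41% of all genes. TXN, the cytosolic thioredoxin, was at 186, 276 and 230.4 RPKM (log2 ratios 0.56 and 0.30). TXNRD1, which hands electrons to thioredoxin, was at 231, 145 and 154 RPKM (-0.67 and -0.59). PRDX1 and TXNRD1 were thus at the same level with si-Control, at a ratio of 0.999, while the ratio was 3.89 with si-RBCK1 #1 and 3.21 with si-RBCK1 #2.

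Genes that repair or restrain the system also stood apart. SRXN1, the sulfiredoxin that repairs overoxidized peroxiredoxins, was at 28.8, 47.3 and 41.2 RPKM (0.70 and 0.50). TXNIP, which binds and inhibits thioredoxin, was at 194, 63.6 and 67.3 RPKM (-1.59 and -1.51). SESN1, a stress-induced sestrin, was at 2.68, 10.5 and 7.76 RPKM (1.65 and 1.25). TXNDC5, a thioredoxin-domain protein of the endoplasmic reticulum, was at 2.61, 7.72 and 8.19 RPKM (1.27 and 1.35). TXN2, the mitochondrial thioredoxin that serves PRDX3, had log2 ratios of 0.25 and 0.04.

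**Figure D5:**
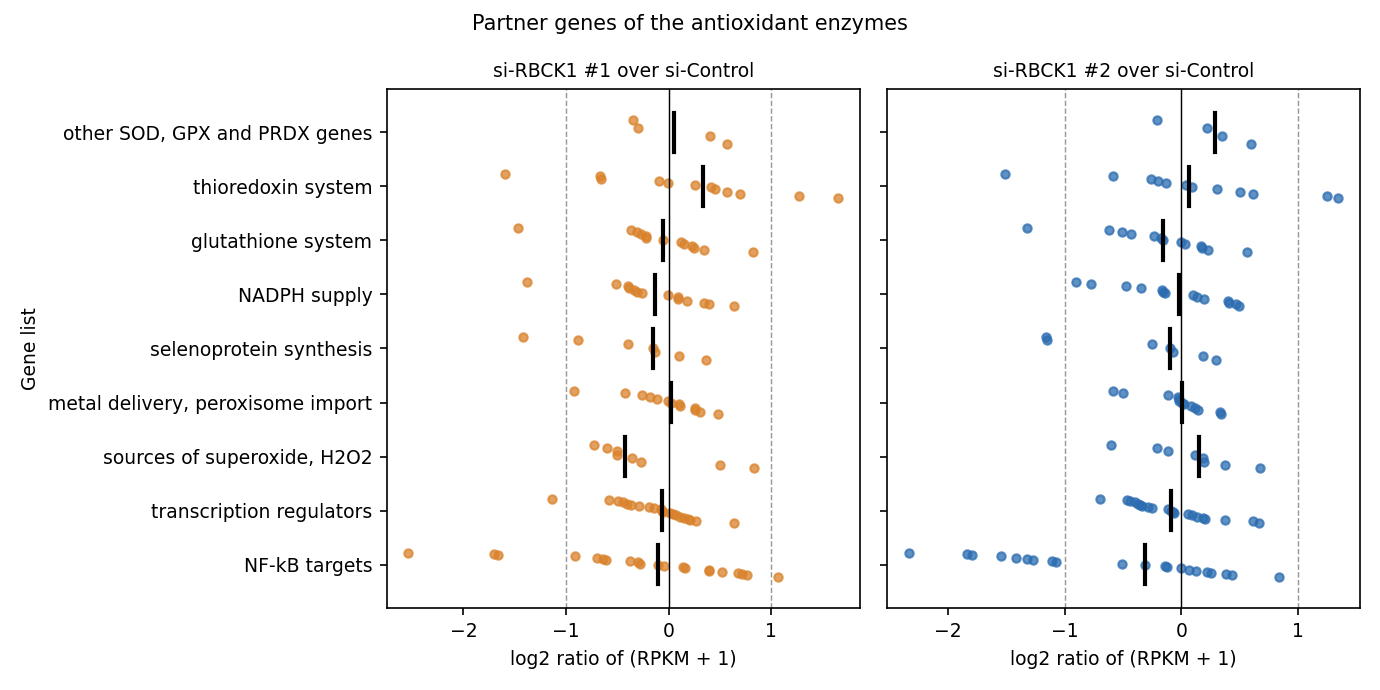
Log2 ratio of (RPKM + 1) over si-Control for genes of 9 gene lists, with si-RBCK1 #1 (left) and si-RBCK1 #2 (right); each point is 1 gene past the filter, black bars are list medians and dashed lines mark 2-fold. In the thioredoxin list SESN1 (1.65 and 1.25) and TXNDC5 (1.27 and 1.35) lie past the upper line and TXNIP (-1.59 and -1.51) past the lower line in both panels.

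All 13 genes of the glutathione system passed, with medians of -0.06 and -0.16. Of these, 1 was 2-fold changed with both siRNAs, beside 2.87% of all genes in the same direction. This was SLC7A11, the cystine importer, at 13.4, 4.21 and 4.76 RPKM (log2 ratios -1.47 and -1.32). GSR, which reduces oxidized glutathione, was at 32.8, 58.9 and 49.1 RPKM (0.82 and 0.57). Of the synthesis genes, GCLC had log2 ratios of 0.12 and 0.17, GCLM of -0.22 and -0.16 and GSS of -0.31 and -0.00. Of 15 genes of NADPH supply, 14 passed, with medians of -0.13 and -0.02, and none was 2-fold changed with both. PGD, a dehydrogenase of the pentose phosphate pathway that makes NADPH, had log2 ratios of 0.63 and 0.49, the highest of the 14. Of the 14, 6 were higher and 7 lower with both siRNAs, beside 43.3% and 38.2% of all genes. With si-RBCK1 #1 alone counted, none was at least 2-fold higher and 1 was at least 2-fold lower, beside 361 and 405 of all 12403 genes.

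GPX1 and GPX4 carry selenocysteine, and 7 of 8 genes of selenoprotein synthesis passed, with medians of -0.16 and -0.09. EEFSEC, the elongation factor that delivers selenocysteine, was at 6.14, 1.66 and 2.21 RPKM (-1.42 and -1.15). It was the only one of the 7 at least 2-fold lower with both siRNAs, beside 1.41% of all genes. RUVBL1 overlaps it on the opposite strand and was at 34.1, 37.7 and 35.9 RPKM. SEPSECS, the last enzyme of selenocysteine tRNA synthesis, had log2 ratios of -0.88 and -1.16, and SEPHS2, the selenophosphate synthetase, had -0.39 and -0.25. GPX1 was above the control with both siRNAs (0.23 and 0.45), and GPX4 was slightly lower with si-RBCK1 #1 (-0.16) and level with si-RBCK1 #2.

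Metal delivery and peroxisome import had 13 of 14 genes past the filter, medians of 0.02 and 0.00, and none 2-fold changed with both. The sign of these medians changed with the scaling of the libraries. CCS, the copper chaperone of SOD1, had log2 ratios of -0.12 and 0.14. SLC39A14, a transporter that brings manganese and zinc into cells, was at 83.0, 43.3 and 54.9 RPKM (-0.92 and -0.59). PEX5, the import receptor of peroxisomal enzymes, was at 11.9, 14.5 and 12.1 RPKM (0.26 and 0.02).

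Of 22 sources of superoxide and hydrogen peroxide, 8 passed, with medians of -0.43 and 0.15, and none was 2-fold changed with both siRNAs. ACOX3, a peroxisomal oxidase, had log2 ratios of 0.83 and 0.68, the highest of the 8. Of these 8, 2 were higher and 3 lower with both siRNAs, beside 43.3% and 38.2% of all genes. With si-RBCK1 #1 alone counted 6 were lower, and with si-RBCK1 #2 3 were, beside 6009 and 5756 of all 12403 genes. Across the 8 lists around these enzymes, 92 of 115 genes passed the filter, 2 were at least 2-fold higher and 3 at least 2-fold lower with both siRNAs, beside 1.46% and 1.41% of all genes. Their medians were -0.06 and -0.02.

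Of 22 regulators of antioxidant genes, 21 passed, with medians of -0.06 and -0.09, and none was 2-fold changed with both siRNAs. NFE2L2 (NRF2), the activator that acts at antioxidant response elements, was at 54.9, 38.8 and 42.3 RPKM (-0.49 and -0.37). KEAP1, which targets NRF2 for degradation, was at 23.5, 37.0 and 37.8 RPKM (0.64 and 0.67). RELA, the p65 subunit of NF-kB, had 0.15 and 0.19.

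SOD2 is a known NF-kB target, and linear ubiquitin chains act in NF-kB signalling, so 24 other targets were set beside it. Of 21 that passed, none was at least 2-fold higher and 3 were at least 2-fold lower with both siRNAs, beside 1.46% and 1.41% of all genes. With si-RBCK1 #1 alone counted, 1 was at least 2-fold higher and 3 lower, beside 361 and 405 of all 12403 genes. With si-RBCK1 #2 none was higher and 9 were lower, beside 310 and 281 of all 12403 genes. At any size of change, 6 of the 21 were higher and 11 lower with both siRNAs, beside 43.3% and 38.2% of all genes. The medians were -0.11 and -0.31. CXCL8, the neutrophil chemokine, was at 3383, 1070.2 and 667 RPKM (-1.66 and -2.34). LCN2, a siderophore-binding protein, was at 143, 23.8 and 52.9 RPKM (-2.54 and -1.42), and PTX3, a long pentraxin, was at 198, 60.3 and 54.8 RPKM (-1.70 and -1.84). NFKBIA, the inhibitor IkB-alpha and a quick target, had 0.72 and 0.26 and so stood on the other side of the control from SOD2.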

How the data were processed

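RNA-seq data of 3 Caki-1 libraries were used, 1 per siRNA. The authors deposited RPKM values of 44591 genes. The submitters' processing notes name FastQC, Trimmomatic, TopHat2, HTSeq and hg19, and the gene annotation was not given in the sources used here. The deposited table also holds the authors' own log2 fold change, p-value and q-value, with pooled control and treated values, and these were not used.

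The 12403 genes averaging 1 RPKM or more were compared as log2(RPKM + 1), with no test, because each condition had 1 library, and a gene was counted as differing at 2-fold. The steps between low RPKM values give the library totals and whole reads for 12388 of these genes (99.9%), all 10 enzyme genes among them. Reads counted as whole within 0.0002 reads plus 1.5e-08 of their number, and the shortest gene length that fitted was taken. On these reads 95% exact Clopper-Pearson intervals were computed. They cover counting error only. A count test was not run.

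Named genes are RBCK1, the 10 enzymes, genes and pseudogenes at their loci, list members at least 2-fold changed with both siRNAs, up to 4 others per list that act on an enzyme, and the 3 genes nearest to SOD2. Further list members were chosen with their values known. Some of them, and 1 promoter motif, are not reported here. The enzymes and the 9 lists were chosen with earlier results of these data known. Sequences of siRNAs come from the study's supplement, transcripts from GENCODE v29 and promoters from RefSeq (GRCh38.p14). Alternatives were pseudocounts of 0.1 and 5 RPKM, equal medians or totals, a filter at 5 RPKM or none, fold limits of 1.5 and 4, protein-coding genes alone, means in place of medians, the median without SOD2, and recovered reads. Simulated data were used to test the 2-fold calls, the coverage of the counting intervals, and read recovery as reads per length. The absolute number of recovered reads, the gene lists, the shares and the sequence steps were not tested in this way. Scripts ran in Python 3.11.15 with pandas 2.3.3, numpy 2.4.6, matplotlib 3.10.9 and scipy 1.17.1.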

Additional observations from a re-analysis of the deposited data

How the results depend on the processing

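No paired analysis was possible because there was a single library for each siRNA; no library was left out for the same reason. Depth limited PRDX2 (313 to 398 reads) and genes under 1 RPKM.

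Of 100 values of single enzyme genes under the alternatives, 85 moved by less than counting error, and 14 moved by more but kept their sign. The other 1 changed sign, PRDX2 with si-RBCK1 #1 at equal totals (-0.034). Of the 85, 20 were values on recovered reads, which lie inside the counting intervals by construction and so do not show stability. The count of enzyme genes past 2-fold was 0 for each siRNA and for both at a limit of 4-fold. The mean over the 10 genes with si-RBCK1 #2 was 0.18, against a median of 0.33. Counted in reads, the share of SOD2 in the pair was 97.2%, 90.7% and 90.02% in the order si-Control, si-RBCK1 #1 and si-RBCK1 #2. In reads the shares among peroxiredoxins were 39.0%, 55.6% and 55.6% for PRDX1, 14.9%, 12.7% and 12.5% for PRDX3, 18.9%, 10.6% and 12.5% for PRDX5 and 26.2%, 20.4% and 18.5% for PRDX6, and 0.627% and 0.916% for PRDX2 with si-RBCK1 #1 and #2. Gene length shows the cause here.

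The number of all genes past 2-fold was 766, 591 and 356 (si-RBCK1 #1, si-RBCK1 #2, both). It was 1346, 1085 and 673 with a pseudocount of 0.1 RPKM and 219, 198 and 125 with 5 RPKM, 455 and 391 (each siRNA) for genes of at least 5 RPKM, 2934, 2556 and 1700 at 1.5-fold, and 47, 31 and 11 at 4-fold.

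Medians near 0 changed sign in 10 cases. For genes of at least 5 RPKM the glutathione list was 0.032 with si-RBCK1 #1 and NADPH supply 0.102 with si-RBCK1 #2. NADPH supply with si-RBCK1 #2 was also 0.010 with a pseudocount of 5 RPKM and 0.033 without a filter. Metal delivery and import was -0.032 (equal totals) and -0.031 (mean) with si-RBCK1 #1, and -0.048 (equal medians), -0.030 (equal totals) and -0.018 (mean) with si-RBCK1 #2. Sources without a filter were 0.0027 with si-RBCK1 #1.

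Other medians kept their direction but moved by more than a margin set for each list, the distance between the medians of its genes' lower and upper counting bounds divided by 2 (0.034 to 0.22). For genes of at least 5 RPKM they were 0.0077 (other SOD, GPX and PRDX genes, si-RBCK1 #2), -0.081 (glutathione, #2), -0.0069 (NADPH supply, #1), and -0.29 and -0.71 (NF-kB targets, #1 and #2). As means they were 0.19 (thioredoxin, #1), -0.36 and -0.32 (selenoprotein synthesis), -0.20 and 0.079 (sources), and -0.24 and -0.59 (NF-kB targets). Without a filter they were -0.044 (NADPH supply, #1), 0.043 (sources, #2) and -0.13 (NF-kB targets, #2). With a pseudocount of 5 RPKM they were -0.24 (sources, #1) and -0.17 (NF-kB targets, #2). Scaling gave -0.11 (glutathione, #1, equal totals) and -0.36 (NF-kB targets, #2, equal medians). The cause of the changes in the medians was not tested.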

Other observations

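CYBA, the membrane subunit that NADPH oxidases need, was among the highest genes of the lists at 344 RPKM in the control library and 286 and 392 RPKM in the si-RBCK1 #1 and #2 libraries. The catalytic subunits it pairs with were close to undetected in the same libraries. CYBB was at 0 to 0.0956 RPKM, NOX1 at 0.0870 to 0.193 RPKM, NOX3 at 0.0135 to 0.109 RPKM and NOX4, known as the renal NADPH oxidase, at 0.0101 to 0.0562 RPKM.

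Several genes that NRF2 is known to activate stood on opposite sides of the control. PRDX1, SRXN1, GSR and PGD were higher with both siRNAs, and TXNRD1, SLC7A11 and GCLM were lower with both. These genes were singled out after their values were seen, and no test was run.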
